A study of Homo sapiens with 4 samples.

Results

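The genes described here copy DNA and bring cells from G1 into S phase. They are 38 genes chosen by name, among 18417 genes that had a probe set naming them alone, and all 38 were on the array. Each gene was read by the probe set with the highest mean, and 37 of the 38 reached the filter on dim genes, an intensity of 155 on at least 1 array (the median of all values that name a gene). GINS4 did not reach it and is given apart. The cells were MCF12A, an established human breast epithelial line that does not form tumours, grown as a monolayer with horse serum, insulin, hydrocortisone, cholera toxin and epidermal growth factor in the medium of all 4 cultures. These were control 1 (unexposed, for the ethanol experiment), 25 mM ethanol for 1 week, control 2 (unexposed, for the acetaldehyde experiment) and 2.5 mM acetaldehyde for 1 week. Each was read on 1 Affymetrix Human Gene 1.0 ST array. There was 1 array per group, so the differences below rest on single arrays without replicates, and this limits how precisely they are known.

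Replication origins are licensed in G1, when the origin recognition complex, CDC6 and CDT1 load the ring of MCM2 to MCM7 onto DNA. Cyclin E and its kinase then help to switch the ring on together with CDC45 and the GINS complex, and polymerases, the sliding clamp and enzymes that make deoxynucleotides follow. Many of these genes are classical targets of the E2F transcription factors, which the retinoblastoma protein holds back until cyclin D and cyclin E kinases act. In cultured breast epithelial cells, epidermal growth factor and insulin are known to drive this step.

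Promoter letters are shown for 7 of the genes, because they carry some of the larger differences described below or, as with MCM6 and E2F1, show how the E2F letters can lie. The stretches run from 100 bases before to 20 bases after the start site, are taken from RefSeq (GRCh38.p14) and are written along the gene's own strand. Where a gene has several start sites, the stretch with the most capitals is shown. Capitals mark the 4 forms searched, TTTCGCGC, TTTGGCGC, TTTCCCGC and TTTGCCGC, on either strand.
CDC6 (chr17:40287779-40287898, + strand): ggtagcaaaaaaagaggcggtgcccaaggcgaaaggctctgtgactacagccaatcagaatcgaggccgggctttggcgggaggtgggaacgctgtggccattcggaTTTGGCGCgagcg
CDT1 (chr16:88803689-88803808, + strand): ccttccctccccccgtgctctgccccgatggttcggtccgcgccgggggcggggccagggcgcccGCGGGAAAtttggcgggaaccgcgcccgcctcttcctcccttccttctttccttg
MCM6 (chr2:135876424-135876543, - strand): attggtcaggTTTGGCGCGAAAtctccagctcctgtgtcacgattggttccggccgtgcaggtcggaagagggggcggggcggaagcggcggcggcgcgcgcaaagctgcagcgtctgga
PCNA (chr20:5126603-5126722, - strand): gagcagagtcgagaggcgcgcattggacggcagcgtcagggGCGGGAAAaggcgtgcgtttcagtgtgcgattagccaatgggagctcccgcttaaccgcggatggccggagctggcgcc
UHRF1 (chr19:4909401-4909520, + strand): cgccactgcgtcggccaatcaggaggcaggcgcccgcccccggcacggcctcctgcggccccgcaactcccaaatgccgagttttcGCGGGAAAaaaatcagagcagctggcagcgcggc
E2F1 (chr20:33686366-33686485, - strand): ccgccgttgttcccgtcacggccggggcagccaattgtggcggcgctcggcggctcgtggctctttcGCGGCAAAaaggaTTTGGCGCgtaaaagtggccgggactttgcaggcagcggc
CCNE1 (chr19:29811891-29812010, + strand): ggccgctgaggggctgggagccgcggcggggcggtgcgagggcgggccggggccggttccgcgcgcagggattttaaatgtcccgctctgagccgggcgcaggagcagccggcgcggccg

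In MCM6 the capitals hold TTTGGCGC and, overlapping it on the other strand, TTTCGCGC. The CCNE1 stretch holds none of the forms searched. Over whole windows of 250 bases before to 50 after a start site, 33 of the 38 genes had a window, and 18 of these 33 (54.5%) held at least 1 of the 4 forms in any of their windows, against 3.99% of 27305 genes of all kinds. MCM4, MCM5, GINS4, CCNE2 and CCND1 had no window in the table used. For comparison, 3 of 20 mitosis genes with a window held an E2F form. The cell cycle homology region letters TTTGAA or TTCGAA, searched on both strands, showed the opposite split, with 15 of 20 mitosis genes, 2 of the 33 replication and G1/S genes (MCM6 and RRM1) and 19.5% of all genes. A match is a description of letters, not a measured site, and both lists were chosen by name. The 18 genes with the E2F letters had a median log2 difference of 0.24 with ethanol, 0.06 with acetaldehyde and -0.18 for control 2 minus control 1. The 15 genes without them had medians of 0.19, 0.09 and -0.06, so both sets of genes had medians of the same sign in each comparison.

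The arrays of each experiment resembled each other in their overall distribution more than arrays of different experiments did. The median intensity was 90.2 and 92.2 in the ethanol experiment and 113.0 and 113.8 in the acetaldehyde experiment. Identical values were found for 77 probe sets between ethanol and control 1 and for 38 between acetaldehyde and control 2, against 0 or 1 in other pairs. Each exposure was set against its own control because the sample titles pair them that way. Control 2 minus control 1 then gives the gap between unexposed cultures of separate experiments, in which experiment, normalization and culture cannot be told apart. Of 9 measured breast epithelial markers 8 reached the filter intensity on all 4 arrays, including KRT5, KRT14, CDH1 and EPCAM, whereas none of 4 endothelial and 3 leukocyte markers reached it on any array. The hormone receptor genes ESR1 and PGR did not reach it either. In bulk RNA, more cells in a phase and more RNA per cell cannot be told apart.

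**Figure D1:**
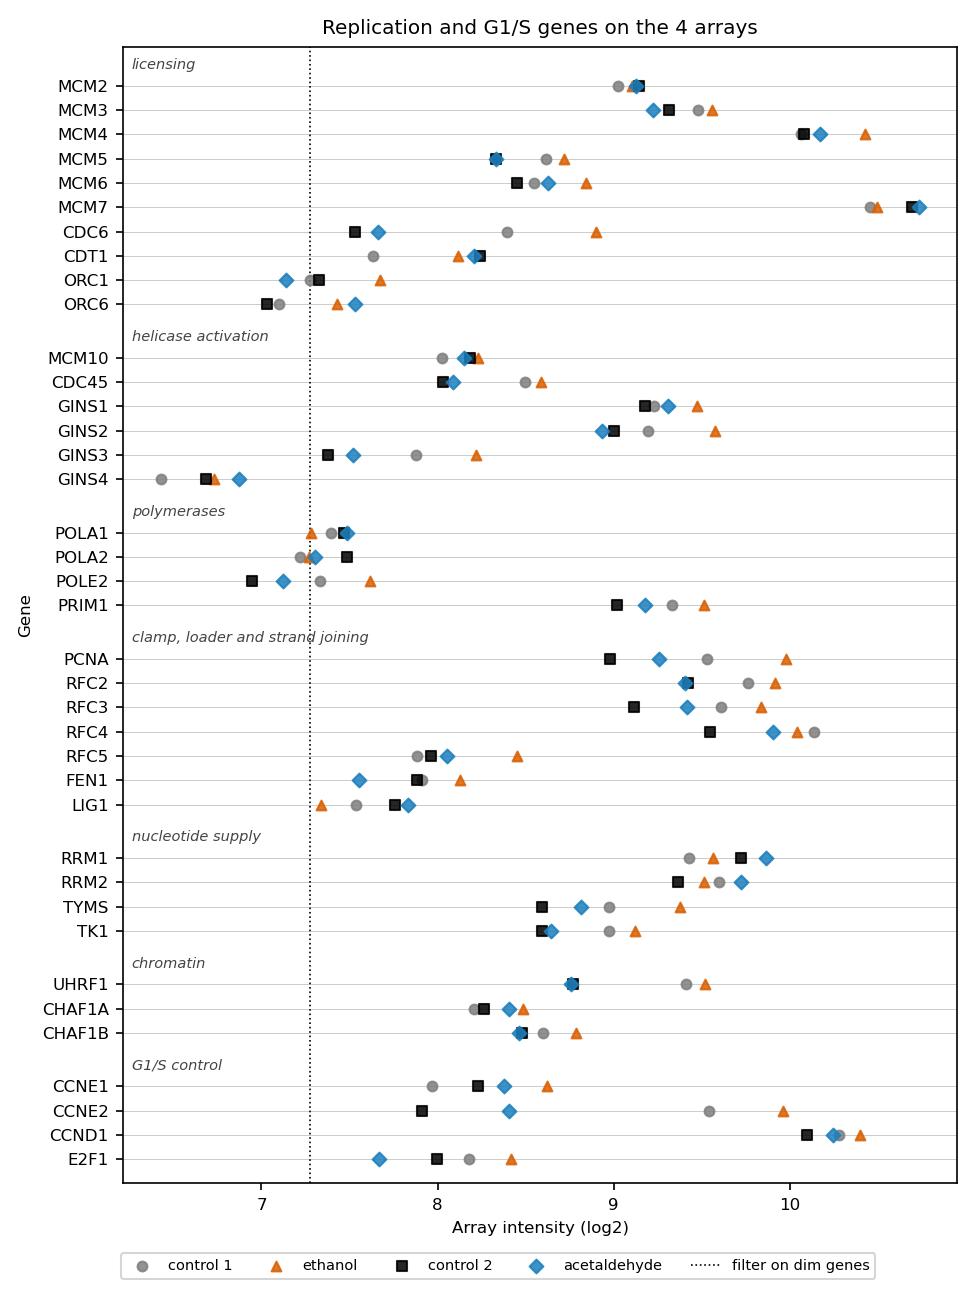
Intensity (log2, horizontal) of the 38 genes on the 4 arrays, 1 symbol per array, grouped by role, with the filter intensity of 155 as a dotted line. The ethanol symbol lies to the right of both controls for 28 of the 37 kept genes, and the controls are furthest apart for CCNE2.

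With ethanol, the replication and G1/S genes were mostly a little higher than in control 1, with a median log2 difference of 0.21 over the 37 kept genes, against 0.05 over 10373 kept genes. Of the 37, 33 were above control 1 (89.2%), against 57.8% of all kept genes, and 4 were below (LIG1, POLA1, RFC4 and RRM2). MCM3 and MCM7, at 0.08 and 0.04, lay just below 0 when all 4 arrays were normalized together, which left 31 above control 1 and a median of 0.14. Over all kept genes, 5217 of 10282 were above control 1 in that normalization, with a median of 0.00. The sizes of the differences of the 37 genes were small. CCNE1 alone (1 of 37, 2.70%) was at least 1.5-fold higher, against 5.44% of all kept genes, and 0 of 37 were at least 1.5-fold lower, against 4.22%. The genes thus lay above control 1 more often than all genes did and had a higher median, but they did not pass 1.5-fold more often.

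Ethanol also lay above both controls for 28 of the 37 genes (75.7%), against 35.2% of all kept genes. Against control 2 in place of control 1 the median was 0.39, against -0.01 over all kept genes, with 8 of 37 genes at least 1.5-fold higher (21.6%), against 15.4% of all kept genes. Neither set of counts has a test, and control 2 was itself low for many of these genes.

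With acetaldehyde, the median difference from control 2 was 0.09, against 0.00 over all kept genes, and 24 of 37 genes were above control 2 (64.9%), against 50.7%. No gene of the 37 was at least 1.5-fold higher, against 0.742% of all kept genes, or at least 1.5-fold lower, against 0.974%. Acetaldehyde lay above both controls for 12 of 37 genes (32.4%), close to the 30.1% of all kept genes. Against control 1 the median turned to -0.14, against 0.05 over all kept genes, and 3 of 37 genes (CDC6, CCNE2 and UHRF1, 8.11%) were at least 1.5-fold lower, against 12.4% of all kept genes.

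Between the unexposed cultures, 24 of the 37 genes were lower in control 2 than in control 1, and the median difference was -0.17, against 0.06 over all kept genes. The 13 genes above control 1 made up 35.1%, against 54.5% of all kept genes. CCNE2, CDC6, UHRF1 and RFC4 were at least 1.5-fold lower (4 of 37, 10.8%), against 12.9% of all kept genes. With all arrays normalized together RFC4, at -0.51, was no longer among them, and GINS3 (-0.67) and POLE2 (-0.63) were. CDT1 alone (1 of 37) was at least 1.5-fold higher, against 14.9%. By size the genes were no more often far apart than other genes, and the largest gap of these 37 genes in any of the 3 comparisons was that of CCNE2 between these controls. Ethanol minus control 1 and control 2 minus control 1 share the control 1 array, so their values are given side by side and not related to each other. The summed intensity of 6 fibroblast genes was 421 to 524 in the ethanol experiment and 844 to 866 in the acetaldehyde experiment, with COL1A1 at or above the filter on all 4 arrays; its part in the gap between controls was not tested.

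**Figure D2:**
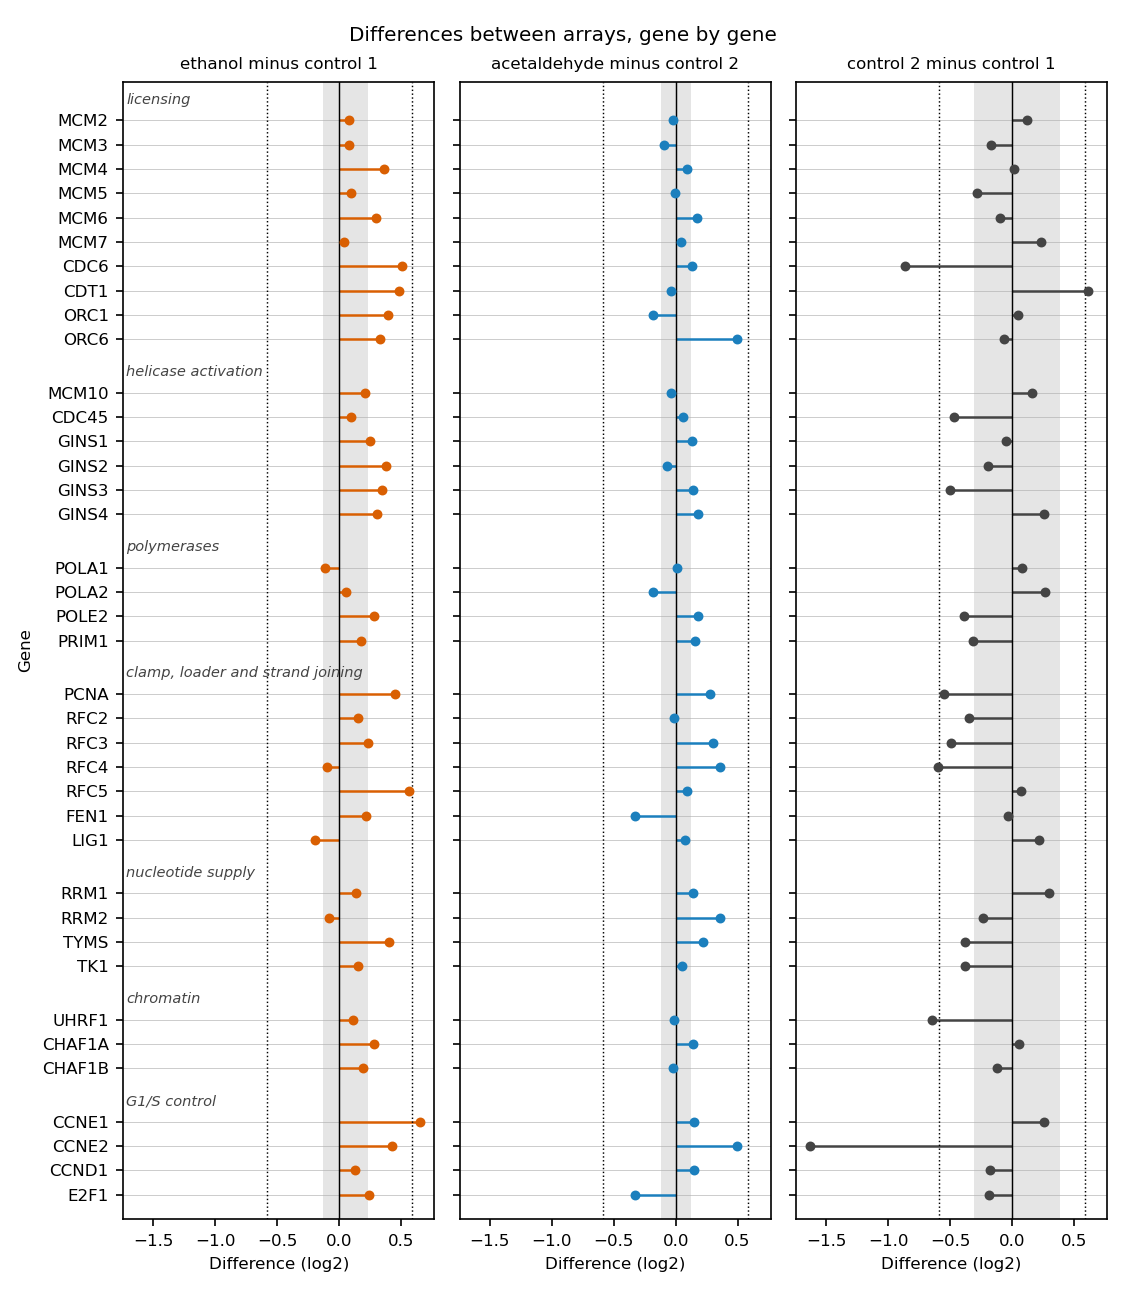
Log2 difference of each of the 38 genes in the 3 comparisons, with dotted lines at 1.5-fold and grey bands from the lower to the upper quartile of all kept genes. Most ethanol values point right by less than 1.5-fold, CCNE1 alone crosses the line there, and CCNE2 has the longest bar, at -1.63 between the controls.

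Either exposure was also tested against the controls across all 4 arrays with limma and the experiment as a block, which leaves 1 residual degree of freedom and treats the mean of both agents as the effect, although they are not replicates of one treatment. With Benjamini-Hochberg adjustment at 0.05, limma called 0 of 10373 genes (0%) and 0 of the 37. At an unadjusted p under 0.05 there were 1024 genes (9.87%), and 3 of the 37 (8.11%), all higher. These were CCNE2 (log2 0.46 ± 0.11 SE, limma adjusted p = 0.49), ORC6 (0.41 ± 0.12, limma adjusted p = 0.49) and PCNA (0.37 ± 0.12, limma adjusted p = 0.49). Each was above its control in 2 of 2 experiments. A low p in this fit already requires the experiments to be alike, so that count adds no support. None passes the correction, and the share of these genes is near that of all genes. ORC6 was also among the kept genes only through its exposed arrays.

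Among the licensing genes, all 10 were above control 1 with ethanol as deposited (100%, against 57.8% of all kept genes), with a median of 0.31. With all arrays normalized together, MCM3 and MCM7 lay just below 0. With acetaldehyde 5 were above and 5 below control 2 (50% above, against 50.7% of all kept genes). CDC6 (probe set 8007071), the ATPase that joins the origin complex to recruit MCM, had intensities of 336 in control 1 and 478 with ethanol, then 185 in control 2 and 202 with acetaldehyde. It was thus high on both arrays of the ethanol experiment and low on both of the acetaldehyde experiment, 1.42-fold higher with ethanol and 1.82-fold lower in control 2 than in control 1. CDT1 (7997839), the MCM loading factor that is destroyed in S phase, had 198 in control 1 and 277 with ethanol, then 303 in control 2 and 295 with acetaldehyde. Control 1 was the low array for CDT1, and ethanol lay between the controls.

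The origin recognition complex marks origins, and ORC1 and ORC6 are members of it. ORC1 (7916167) had 155 in control 1 and 204 with ethanol, then 161 in control 2 and 141 with acetaldehyde, so that the controls were within 1.04-fold and the exposures lay on either side of them, by 0.40 and -0.19. ORC6 (7995354) had 137 in control 1 and 172 with ethanol, then 131 in control 2 and 185 with acetaldehyde. Both exposed arrays were above both controls for ORC6, by 1.26-fold and 1.41-fold from their own. Both genes were close to the filter intensity of 155, where sizes are least certain. ORC6 was under it in both controls and reached it only on the exposed arrays, so its place among the kept genes rests on them.

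The MCM2 to MCM7 genes encode the helicase ring. All 6 were above control 1 with ethanol as deposited (100%, against 57.8% of all kept genes). They ranged from 0.04 (MCM7) to 0.36 (MCM4), with a median of 0.09. MCM4 (8146357) had 1071 in control 1 and 1376 with ethanol, then 1084 in control 2 and 1153 with acetaldehyde, so that ethanol stood above 3 arrays that were close together. MCM6 (8055426) had 375, 460, 350 and 395 in the same order of arrays, with both exposures above both controls. MCM2, MCM3, MCM5 and MCM7 differed by at most 0.10 with ethanol. With acetaldehyde the ring genes lay between -0.09 (MCM3) and 0.17 (MCM6), 3 above and 3 below control 2, and between controls from -0.29 (MCM5) to 0.23 (MCM7).

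Of the genes that activate the helicase, the 5 kept ones were all above control 1 with ethanol (100%, against 57.8% of all kept genes). Their median was 0.25. GINS2 (8003204), part of the GINS complex that rides with the MCM ring, had 586 in control 1 and 762 with ethanol, then 513 in control 2 and 489 with acetaldehyde. GINS3 (7996211) had 235, 298, 166 and 184 in that order, and again the ethanol experiment held the higher pair. GINS1 was at 0.25 with ethanol and 0.13 with acetaldehyde. GINS4 (8146130), under the filter on every array, had 86.2, 106, 103 and 117 in the same order of arrays, with differences of 0.30 and 0.18. MCM10, which binds the ring as it opens, was at 0.21 and -0.04, and CDC45, the helicase cofactor, at 0.10 and 0.06, with CDC45 lower in control 2 by a log2 difference of -0.46.

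The polymerase genes differed by at most 0.39 in any comparison. POLA1 (8166525), the catalytic subunit of the polymerase that starts each strand, had 168 in control 1 and 155 with ethanol, then 177 in control 2 and 179 with acetaldehyde, all close to the filter. POLA2 (7941214), its second subunit, had 149, 155, 179 and 158 in that order. PRIM1, the primase that lays the RNA primer, was at 0.18 with ethanol and 0.16 with acetaldehyde, and POLE2, a subunit of the leading strand polymerase, at 0.28 and 0.18. Both PRIM1 and POLE2 were lower in control 2 than in control 1, by -0.31 and -0.39.

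PCNA is the sliding clamp, and RFC2 to RFC5 are subunits of the loader that places it. PCNA (8064844) had 739 in control 1 and 1009 with ethanol, then 504 in control 2 and 613 with acetaldehyde, 1.37-fold and 1.22-fold above each control. The control 1 array stood above acetaldehyde, so that the order between experiments was larger than either exposure gap. RFC5 (7959052) had 236 in control 1 and 350 with ethanol, then 249 in control 2 and 266 with acetaldehyde, and its 1.48-fold gap with ethanol stood alone among 4 arrays. RFC4 (8092640) had 1128 in control 1 and 1054 with ethanol, then 747 in control 2 and 957 with acetaldehyde. For RFC4 control 2 was the low array, and the signs of the exposures differed, at -0.10 and 0.36. RFC3 was at 0.23 and 0.30, and RFC2 at 0.15 and -0.01.

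FEN1 trims the ends of Okazaki fragments, and LIG1 seals them. FEN1 (7940561) had 241 in control 1 and 279 with ethanol, then 236 in control 2 and 188 with acetaldehyde, with the exposures on opposite sides of near-equal controls (0.21 and -0.33). LIG1 (8037991) had 186 in control 1 and 162 with ethanol, then 216 in control 2 and 228 with acetaldehyde. Ethanol was the lowest array for LIG1, at a log2 difference of -0.20, the lowest of the 37 in that comparison.

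The nucleotide supply genes had medians of 0.14 with ethanol and 0.18 with acetaldehyde. With ethanol 3 of the 4 were above control 1 (75%, against 57.8% of all kept genes). With acetaldehyde all 4 were above control 2 (100%, against 50.7%). TYMS (8019842), which makes thymidylate, had 502 in control 1 and 664 with ethanol, then 386 in control 2 and 450 with acetaldehyde. The order of the TYMS arrays was that of PCNA. RRM2 (8040223), the regulated subunit of ribonucleotide reductase, had 777 in control 1 and 731 with ethanol, then 660 in control 2 and 845 with acetaldehyde. RRM1 (7937915), its large subunit, had 689, 758, 847 and 932 in that order, and both arrays of the acetaldehyde experiment were the higher ones. TK1, the thymidine salvage kinase, was at 0.15 and 0.05.

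Of the chromatin genes, UHRF1 carries DNA methylation through replication, and CHAF1A and CHAF1B place histones on new DNA. UHRF1 (8024900) had 681 in control 1 and 734 with ethanol, then 436 in control 2 and 433 with acetaldehyde, a gap between experiments with little gap inside either. A second UHRF1 probe set (8032922), under the filter at 73.8 to 110, went the other way between controls, at 0.35 against -0.64. CHAF1A was at 0.28 with ethanol and 0.14 with acetaldehyde, and CHAF1B at 0.19 and -0.02.

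The G1/S control genes held the largest differences of the 37 with ethanol (CCNE1) and between controls (CCNE2). CCNE1 (8027402) encodes cyclin E1, which activates CDK2 at the start of S phase. It had 251 in control 1 and 394 with ethanol, then 300 in control 2 and 332 with acetaldehyde. Ethanol was the highest array for CCNE1, 1.57-fold above control 1, and 95.7% of all kept genes had a lower value in that comparison; with all arrays normalized together its difference was 0.55, under 1.5-fold. CCNE2 (8151871), cyclin E2, had 744 in control 1 and 997 with ethanol, then 241 in control 2 and 339 with acetaldehyde. Both exposures were above their own control for CCNE2, by 1.34-fold and 1.41-fold, while control 2 was 3.09-fold below control 1.

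CCND1 (7942123), cyclin D1, the growth factor responsive cyclin, had 1241 in control 1 and 1352 with ethanol, then 1096 in control 2 and 1212 with acetaldehyde, with log2 differences of 0.12, 0.15 and -0.18 in the 3 comparisons. E2F1 (8065710), the activating E2F factor, had 289 in control 1 and 342 with ethanol, then 255 in control 2 and 203 with acetaldehyde. The exposures were on opposite sides of their controls for E2F1, at 0.24 and -0.33, and the acetaldehyde value was the lowest of the 37 in that comparison.

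Set side by side, 20 of the 37 genes (54.1%) were above their own control with both exposures, against 35.4% of all kept genes. A further 13 were above with ethanol and below with acetaldehyde, and 4 the reverse, against 2321 and 1587 of 10373 kept genes. These counts depend on the shares above each single control. Those were 89.2% with ethanol and 64.9% with acetaldehyde, against 57.8% and 50.7% of all kept genes, so the counts do not show a shared response. CCNE2, ORC6, PCNA, TYMS and RFC3 were above control by 0.22 or more with each. That limit was not planned, and the share of all kept genes passing it was not counted. ORC6 was kept only through its exposed arrays. Across the 37 genes, which are not independent and share arrays, the differences of the exposures had r = 0.10 and rho = 0.19. These pairs share no array, and across all kept genes r was 0.39.

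**Figure D3:**
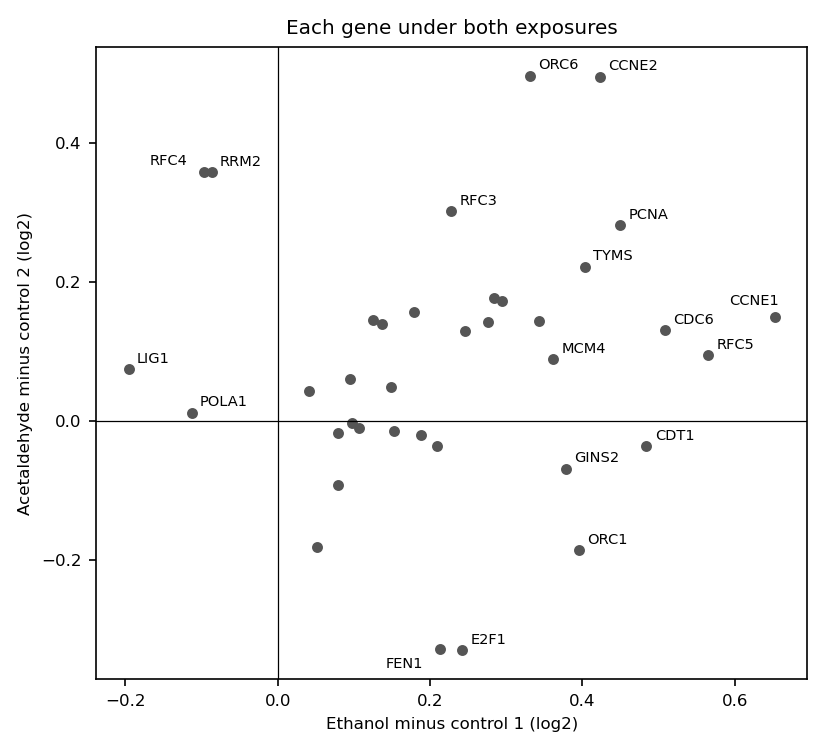
Log2 difference with ethanol (horizontal) and with acetaldehyde (vertical), each from its own control, 1 point per kept gene. Of the 37 points 20 lie at the upper right, above 0 on both axes, CCNE2 and ORC6 are highest, and E2F1 and FEN1 are lowest.

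Other genes of the pathway were read from further lists. Of 37 kept among 40 other replication genes, 28 were above control 1 with ethanol (75.7%, median 0.16), against 57.8% of all kept genes. With acetaldehyde 30 were above control 2 (81.1%, median 0.12), against 50.7%, and 14 were higher in control 2 than in control 1 (37.8%, median -0.09), against 54.5%. GMNN, geminin, the inhibitor of CDT1, was at 0.69 with ethanol, at 313 in control 1 and 504 with ethanol, then 236 in control 2 and 261 with acetaldehyde. PRIM2, the large primase subunit, was at 0.53 with ethanol and 0.45 with acetaldehyde, and CLSPN, the checkpoint adaptor claspin, at 0.47 with ethanol. HELLS, a chromatin remodeller of replicating cells, had 253 in control 1 and 255 with ethanol, then 80.7 in control 2 and 110 with acetaldehyde, with a gap of -1.65 between controls beside -1.63 for CCNE2. Both HELLS values of the acetaldehyde experiment were under the filter, so the size of its gap is uncertain. ORC3 was at 0.41 with acetaldehyde, and TICRR, which helps to fire origins, was higher in control 2 by 1.10 and DNA2, a nuclease, lower by -0.77. CLSPN and DNA2 reached the filter on the ethanol array only, so their place among the 28 genes above control 1 rests on that array.

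The 23 kept among 24 other G1/S control genes had medians of 0.14 with ethanol, 0.10 with acetaldehyde and -0.03 between controls. TFDP2 (0.60), E2F3 (0.52) and cyclin CCNA2 (0.52) had the largest ethanol differences, and CCND2, FBXO5 and CDC25A the largest with acetaldehyde (0.45, 0.33 and 0.32). Control 1 was the low array for TFDP2, E2F3 and CCNA2. Ethanol lay between the controls for TFDP2 and CCNA2, and a little above control 2 for E2F3 (266 against 258). CCND2, cyclin D2, had 1943 in control 1 and 1832 with ethanol, then 138 in control 2 and 189 with acetaldehyde, at a log2 difference of -3.81 between controls. Its control 2 value was under the filter, which leaves that size uncertain. CCNA2 and CKS1B were higher in control 2, by 1.06 and 0.90. The cyclin genes thus lay on both sides of 0 between the controls.

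Of 5 kept genes listed as inhibitors of cyclin-dependent kinases, 4 were below control 1 with ethanol (80%), against 42.2% of all kept genes. With acetaldehyde 3 of the 5 were below control 2 (60%), against 49.3%. So few genes leave these shares uncertain. CDKN1B, p27, had 852 in control 1 and 572 with ethanol, then 586 in control 2 and 565 with acetaldehyde, so that control 1 was the high array. CDKN2D was at -0.39 with ethanol and -0.17 with acetaldehyde, and CDKN1A, p21, at -0.04 and 0.11, with 0.41 between controls. CDKN3, a phosphatase, went the other way with ethanol and had the largest difference of the list in each comparison. It had 193 in control 1 and 387 with ethanol, then 540 in control 2 and 792 with acetaldehyde.

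The mitosis genes, which act later in the cycle, had a median on the other side of 0 from the replication genes between the controls. Of 22 kept mitosis genes 18 were higher in control 2, the median being 0.78 and 14 at least 1.5-fold higher, against 54.5% of all kept genes higher and 14.9% at least 1.5-fold higher. By contrast, 24 of the 37 replication and G1/S genes were lower, with a median of -0.17. This contrast kept its direction with all arrays normalized together, at medians of 0.80 and -0.14. With ethanol both lists had positive medians, 0.42 for mitosis and 0.21 for replication, and with acetaldehyde 0.13 and 0.09. KIF20A, CENPF and CDC20 had the largest mitotic gaps between controls (2.07, 1.70 and 1.25), and KIF20A, CENPF and CCNB2 with ethanol (1.40, 0.92 and 0.70). Control 1 was the low array for KIF20A, CENPF and CCNB2, and ethanol lay between the controls. KIF20A, for example, had 317 in control 1, 835 with ethanol and 1335 in control 2. With acetaldehyde the largest mitotic differences were those of TTK (0.36), AURKB (-0.33) and CDK1 (0.32). The difference between the lists was not tested.

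**Figure D4:**
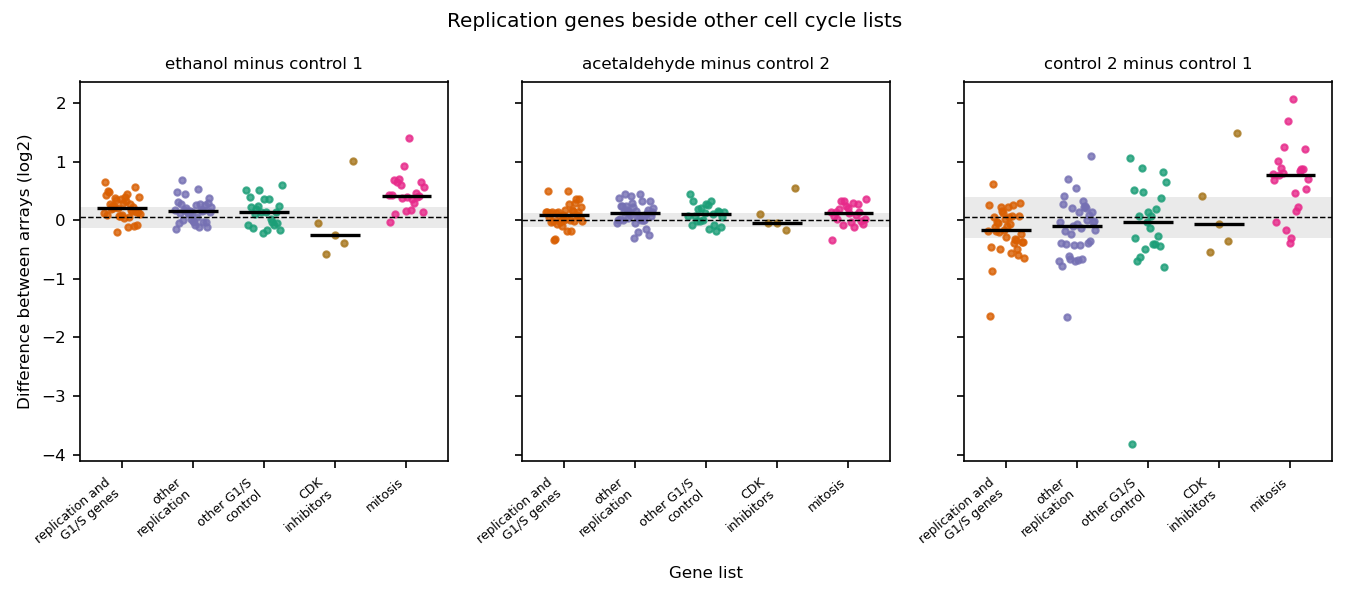
Log2 differences in the 3 comparisons for the kept genes of 5 lists, 1 point per gene, with the list median as a bar; the dashed line and grey band are the median and the span between quartiles of all kept genes (CDK, cyclin-dependent kinase). In the right panel the mitosis median is 0.78 and that of the replication and G1/S genes -0.17, and the lowest point is CCND2 at -3.81.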

How the data were processed

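The deposited values are RMA intensities (RMA per the submitters' processing notes), 1 for each probe set on each array, linear and between 3.13 and 22858. The software behind them is not given in the sources used here. Because the planned comparisons took log2 values, log2 was taken of the deposited intensities with no offset. Of 33297 probe sets, 19460 name 1 gene, 1754 several and 12083 none in the annotation used; 19429 of the 19460 matched RefSeq (GRCh38.p14), and 0 symbols of the 38 genes changed. The 38 genes and all lists were chosen with earlier results of these data known. Every comparison is a log2 difference of 2 arrays. The blocked test used limma 3.58.1 in R 4.3.3 over 10373 kept genes and was tested on simulated data. The labels call the arrays separate samples and no more, so the spread among these 4 may be technical. The 1 residual degree of freedom of the blocked fit is the disagreement between the ethanol and the acetaldehyde difference. Limma draws its size toward that of all kept genes. A p-value of this fit therefore does not measure a spread among replicates, and it mixes noise with any difference between the agents. Named genes are all 38, with values on 4 arrays for those at least 1.5-fold apart and the 3 highest and lowest of each comparison, and of each other list the 3 largest differences per comparison; MCM4, MCM6, GINS2, GINS3, GINS4, PCNA, TYMS, RRM2, CCND1, CDKN1B and CDKN1A were added or given more fully after their values were seen. Alternatives were joint quantile normalization, no filter, means of probe sets, shared probe sets, a 2-fold threshold, the other control and no block. Arrays carry no read depth, and 0 columns of other samples were present. Figures used matplotlib 3.10.9 in Python 3.11.15.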

Additional observations from a re-analysis of the deposited data

How the results depend on the processing

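Against the control of the other experiment, the ethanol median moved from 0.21 to 0.39 and its genes at least 1.5-fold higher from 1 to 8, while the acetaldehyde median reversed from 0.09 to -0.14, with 3 genes at least 1.5-fold lower in place of 0. Control 2 being lower than control 1 for 24 of the 37 genes gives these shifts by construction. With all 4 arrays normalized together, 0 genes were at least 1.5-fold higher with ethanol and 0 in control 2, since CCNE1 and CDT1 came under the threshold at 0.55 and 0.53, and 5 in place of 4 were at least 1.5-fold lower in control 2, without RFC4 and with GINS3 and POLE2. With means of probe sets 3 were lower there, without UHRF1. At 2-fold, 0 genes were higher with ethanol, 0 were higher in control 2 and 1 was lower there (CCNE2). The medians kept their direction under joint normalization, without the filter, with means of probe sets and with shared probe sets, at 0.14 to 0.22 with ethanol, 0.07 to 0.09 with acetaldehyde and -0.17 to -0.14 between controls. The limma fit called 0 genes under all 4 of its alternatives, the fit without a block included. Values under an intensity of 155 (GINS4, and some arrays of ORC1, ORC6, POLA2, POLE2, HELLS, CCND2, CLSPN, DNA2 and CDC25A) are least certain. Leaving out an array was not possible in the matched comparisons, which have 1 array a group.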
